A study of Mus musculus with 22 samples.

Results

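Goblet cells are the secretory cells of the gut lining that make mucus, and the 10 genes described here encode what these cells package, how its sugars are built and what controls the cells: Muc2, Tff3, Fcgbp, Clca1, Zg16, Agr2, Retnlb, Spdef, B3gnt7 and Fut2. They were taken as a named list and matched through the Ensembl identifiers of the count table, and all 10 were found among its 54838 genes. Their levels were followed in bulk RNA-seq of the ileum of adult female FVB/N mice, with 22 libraries of 13149951 to 15620744 counts. The mice were GRWT, with the wild-type glucocorticoid receptor on both alleles, or GRDim, with a point mutation on both alleles in every cell that leaves the receptor poorly able to form dimers. Mice of both genotypes came from GRDim/+ intercrosses in a conventional animal house, and their drinking water was either plain or carried zinc sulfate at 25 mM over 7 days. GRWT mice gave 5 libraries per treatment and GRDim mice 6. The study asked which ileal genes zinc changes and whether the dimerising receptor is needed, and the comparisons below ask this of the goblet cell genes.

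The libraries fell into 2 kinds. Myh11, the smooth muscle myosin heavy chain, was at 298 to 463 CPM (counts scaled to the library total) in 12 muscle-rich libraries and at 3.22 to 20.5 CPM in 10 muscle-poor ones, and the libraries of each kind were fitted apart as well as together. The labels name whole ileum or scraped epithelium (IEC), and the split did not follow them. Whether labels or table columns were exchanged was not tested, and the labels are used as given. Among GRDim libraries, the muscle-rich ones on water were all labelled IEC and those on zinc all ileum, and the muscle-poor ones the reverse, so that within each kind the zinc comparison in GRDim and the tissue label cannot be told apart. Each GRWT condition held 3 muscle-rich libraries (2 IEC, 1 ileum) and 2 muscle-poor ones (both ileum). On zinc, the muscle-poor GRDim libraries were thus all IEC and the GRWT ones all ileum, so that genotype and label cannot be told apart there, and the muscle-rich genotype comparisons were partly unbalanced in the label. One muscle-poor library, GRWT zinc ileum replicate 3, stood apart: the ileal bile acid binding protein Fabp6 was at 18.3 CPM against 3967 or more elsewhere, and the lactase gene Lct, a gene of the upper small intestine, at 6669 CPM against 7.85 or less. The labels do not say that each replicate is a separate mouse, so p-values measure the spread between these samples. The counts hold no check of the genotype, since the GRDim allele is a point mutation.

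In the intestine, goblet cells release gel-forming mucin with several partner proteins, and the resulting layer keeps microbes away from the epithelium. The mucin backbone is covered with O-linked sugar chains that are extended, branched and capped by glycosyltransferases in the Golgi, and these sugars serve as food and binding sites for gut bacteria. Spdef drives the maturation of goblet cells downstream of the secretory fate regulator Atoh1. In bulk tissue, fewer goblet cells and less RNA per goblet cell cannot be told apart, and B3gnt7 and Fut2 are not restricted to goblet cells.

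B3gnt7 and Muc2 are the members whose sequence before the RefSeq start is printed, B3gnt7 because it changed most and Muc2 because it is the mucin that the other genes accompany. The 250 bases before the RefSeq start of each gene (GRCm38.p6, plus strand) are given 5′ to 3′, with the capitals marking TATAAA and the GC box GGGCGG on either strand (CCGCCC when read on the plus strand). For B3gnt7 this window lies inside the GENCODE gene, which starts further upstream.
B3gnt7, chr1:86302971-86303220: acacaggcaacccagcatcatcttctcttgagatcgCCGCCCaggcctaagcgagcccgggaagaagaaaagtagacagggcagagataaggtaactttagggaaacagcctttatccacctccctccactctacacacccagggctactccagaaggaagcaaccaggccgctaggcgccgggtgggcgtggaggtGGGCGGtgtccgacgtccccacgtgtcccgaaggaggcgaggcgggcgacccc
Muc2, chr7:141690090-141690339: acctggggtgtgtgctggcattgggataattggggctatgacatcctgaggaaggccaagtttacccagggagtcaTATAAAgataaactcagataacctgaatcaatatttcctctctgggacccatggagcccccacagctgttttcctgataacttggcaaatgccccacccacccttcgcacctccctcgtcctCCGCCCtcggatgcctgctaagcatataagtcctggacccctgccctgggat
The B3gnt7 window has a GC content of 61.6% and holds the GC box at 2 places, whose first bases lie 214 and 53 bases before the start, and no TATAAA. The Muc2 window has a GC content of 53.2%, with 1 TATAAA at 174 bases and 1 GC box at 52 bases before the start. Neither window holds the metal response element core TGCACNC or TGCGCNC, the STAT core TTCNNNGAA, the glucocorticoid receptor half-site AGAACA or the ETS core CGGAAG, each searched on both strands. Of 32817 RefSeq windows of 250 bases, 32.7% hold GGGCGG, 12.4% TATAAA, 21.4% the metal response core, 7.01% the STAT core, 16.1% the half-site and 13.6% the ETS core. RefSeq windows were found for 5 of the 10 members. Among the remaining 3 (Fcgbp, Agr2 and Spdef), Spdef alone held a searched motif, AGAACA at 196 bases before its start.

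Per kilobase of exon, the secreted proteins stood highest and the enzymes and the regulator lowest. In muscle-rich GRWT water libraries, Zg16 was at 2997 ± 143 normalised CPM per kb (mean ± SD, n = 3) and Tff3 at 2234 ± 172. Retnlb (963 ± 249.8) and Clca1 (898 ± 28.1) overlapped each other in that order, and Agr2 followed at 767 ± 31.9. Fcgbp (201 ± 12.5) and Muc2 (107 ± 15.2) have the longest exons of the 10 and came next. Spdef was at 16.7 ± 1.39, B3gnt7 at 6.23 ± 1.75 and Fut2 at 0.445 ± 0.204. B3gnt7 and Spdef exchanged places between the genotypes on water: in muscle-rich GRDim water libraries B3gnt7 was at 53.3 ± 3.93 per kb, above Spdef at 13.3 ± 0.392 and next below Muc2 at 75.2 ± 11.2. The raw counts behind these levels ran from 7649 to 17156 per library for Muc2 and from 30867 to 63744 for Zg16, but from 251 to 3607 for B3gnt7 and from 11 to 197 for Fut2.

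**Figure D1:**
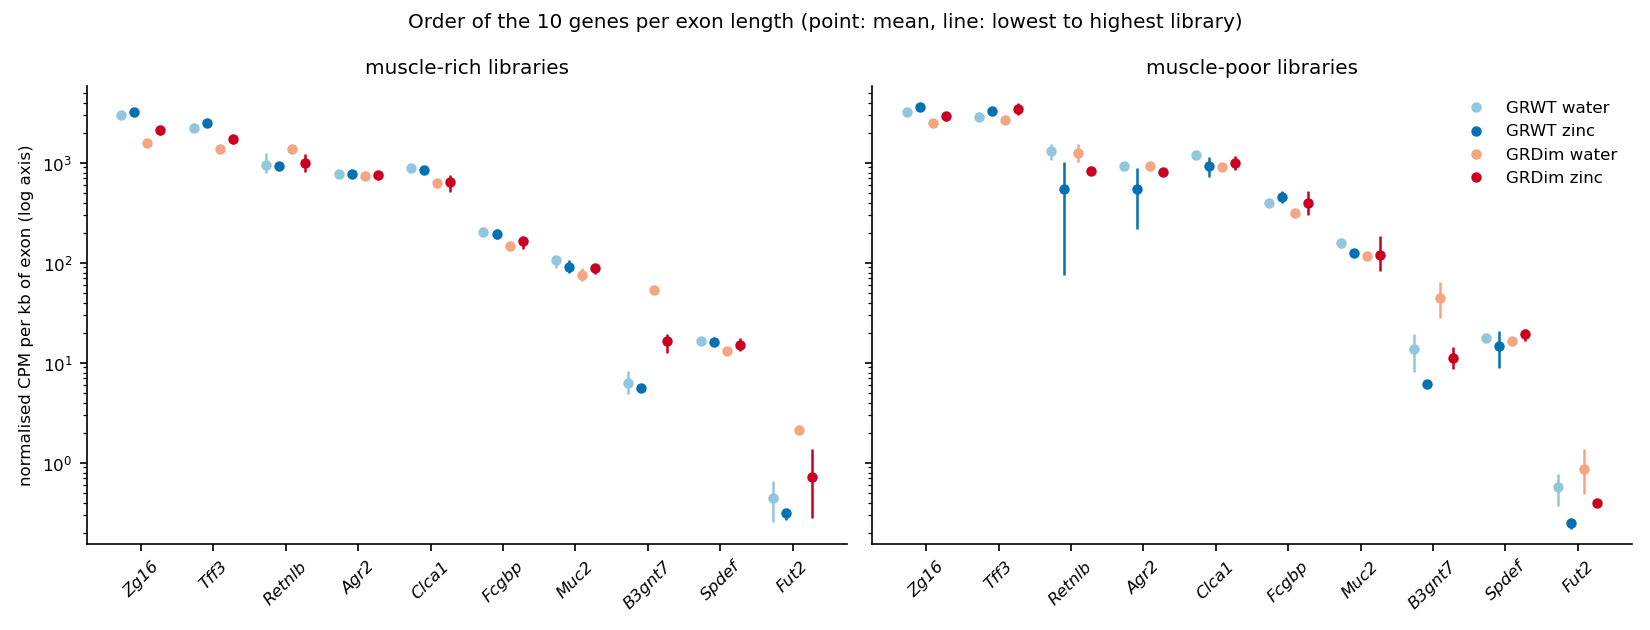
Normalised CPM per kb of exon (log axis) for the 10 genes in muscle-rich (left) and muscle-poor (right) libraries, ordered by their mean in the muscle-rich ones; points are means of 2 or 3 libraries per condition and lines run from the lowest to the highest library. B3gnt7 in GRDim mice on water lies above Spdef on both sides.

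GRDim mice on water differed from GRWT mice on water in most of these genes in the muscle-rich libraries. There 9 of the 10 members had an adjusted p under 0.05 in edgeR, 6 of them lower in GRDim (18.9% of all genes were) and 3 higher (19.7% of all genes were). With a log2 fold change beyond 0.8 as a further condition, which defines a called gene here, 3 members were called (B3gnt7 and Fut2 higher, Zg16 lower), against 10.5% of the 15947 genes tested. Groups without overlap were common in this comparison, at 53.9% of all genes in the muscle-rich libraries (27.9% lower in GRDim) and 41.7% in the muscle-poor ones (20.8% lower). Of the members, 9 had no overlap in the muscle-rich libraries (6 lower, 3 higher) and 6 in the muscle-poor ones (5 lower, 1 higher). The members' median log2 fold change was -0.38, against -0.0028 over all genes. The 2 enzymes thus stood on one side and the packaged proteins on the other, with Retnlb beside the enzymes and Agr2 level.

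Muc2, the gel-forming mucin of the intestine (ENSMUSG00000025515, chromosome 7, 141690340 to 141754693, plus strand), was read at 829.8, 823 and 638 normalised CPM in the muscle-rich GRWT water libraries and at 507, 626 and 475 in the GRDim water ones. All 3 GRDim libraries were below the lowest GRWT one, narrowly at the nearest pair. The difference was -0.49 ± 0.15 (SE, adjusted p = 0.0223) on the log2 scale, with an adjusted p of 0.000818 to 0.0868 over the alternatives. In the muscle-poor libraries Muc2 was at 993 and 1251 in GRWT and 786, 846 and 884 in GRDim, again without overlap, and the difference of -0.43 ± 0.32 (SE, adjusted p = 0.972) did not pass.

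Zg16, a lectin-like protein of the mucus granule that binds bacterial cell walls (ENSMUSG00000049350, chromosome 7, 127050156 to 127087328, minus strand), had the clearest decrease. It was at 3655, 3672 and 3974 normalised CPM in muscle-rich GRWT water libraries and at 2062, 2035 and 1879 in GRDim ones, a gap wider than the spread of either group. Its log2 fold change was -0.90 ± 0.09 (SE, adjusted p = 2.34e-06), and it was called. In muscle-poor libraries Zg16 was at 4285 and 3806 in GRWT and 3022, 3113 and 3365 in GRDim, lower in every GRDim library, with a difference of -0.36 ± 0.16 (SE, adjusted p = 0.88). Over all 22 libraries with the split as a covariate the difference was -0.66 ± 0.10 (SE, adjusted p = 0.000409), under the fold threshold.

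Tff3, the trefoil peptide that goblet cells secrete with mucin and that aids epithelial repair (ENSMUSG00000024029, chromosome 17, 31125306 to 31129646, minus strand), followed Zg16. Its muscle-rich values were 1069, 1038 and 1198 normalised CPM in GRWT on water and 703, 689 and 659 in GRDim on water, without overlap. The log2 difference was -0.67 ± 0.09 (SE, adjusted p = 2.67e-05). The muscle-poor groups overlapped, at 1431 and 1392 in GRWT and 1429, 1286 and 1288 in GRDim. The test of the difference between the muscle-rich and the muscle-poor effect gave adjusted p-values of 0.0792 for Tff3 and 0.0801 for Zg16, and neither passed. The library that stood apart, a GRWT zinc library, enters this test only through the shared scaling, spread, filter and adjustment. Without it the difference was -0.57 for Zg16 and -0.61 for Tff3, from a fit that leaves muscle-poor GRWT zinc without a replicate. Over all alternatives the adjusted p-values of this test ran from 0.00266 to 0.468 for Zg16 and from 0.00895 to 0.366 for Tff3, so that both passed under some.

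Clca1, a secreted protease that processes the mucus gel (ENSMUSG00000028255, chromosome 3, 145003817 to 145032776, minus strand), was at 3511, 3355 and 3308 normalised CPM in muscle-rich GRWT water libraries and at 2498, 2415 and 2187 in GRDim ones, a difference of -0.50 ± 0.11 (SE, adjusted p = 0.00307). Fcgbp, a large protein that is bound into the mucin network (ENSMUSG00000047730, chromosome 7, 28071236 to 28120862, plus strand), was at 2105, 2251 and 1989 in GRWT and at 1501, 1676 and 1461 in GRDim, a difference of -0.43 ± 0.11 (SE, adjusted p = 0.00745). For both genes the muscle-rich GRDim libraries were the lower ones without overlap. The muscle-poor differences were -0.39 ± 0.21 (SE, adjusted p = 0.945) for Clca1 and -0.34 ± 0.24 (SE, adjusted p = 0.972) for Fcgbp, and did not pass.

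Agr2, the disulfide isomerase that folds Muc2 in the endoplasmic reticulum (ENSMUSG00000020581, chromosome 12, 35992907 to 36004087, plus strand), was the steadiest member between genotypes on water in the muscle-rich libraries. It was at 1019.6, 1008 and 943 normalised CPM in muscle-rich GRWT water libraries and 969, 887 and 1040.5 in GRDim ones, with overlap and a difference of -0.02 ± 0.07 (SE, adjusted p = 0.856). Spdef, the ETS-family factor of goblet cell maturation (ENSMUSG00000024215, chromosome 17, 27714352 to 27728955, minus strand), was at 36.3, 37.1 and 42.3 in GRWT and 30.8, 31.3 and 29.6 in GRDim. Spdef was lower in every GRDim library, with a difference of -0.32 ± 0.10 (SE, adjusted p = 0.0177), the smallest of the 6 decreases, with an adjusted p of 0.0051 to 0.0836 over the alternatives. Muscle-poor Agr2 values overlapped, at 1185 and 1213 in GRWT and 1244, 1156 and 1194 in GRDim on water. Muscle-poor Spdef values were 42.6 and 39.6 in GRWT and 37.6, 38.8 and 36.9 in GRDim, lower in every GRDim library, with a difference of -0.13 ± 0.27 (SE, adjusted p = 0.992).

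Retnlb, a resistin-like antibacterial peptide of goblet cells (ENSMUSG00000022650, chromosome 16, 48816856 to 48818892, plus strand), went the other way at the edge of the threshold. Its muscle-rich values were 551, 589.5 and 869.6 normalised CPM in GRWT on water and 948, 1032 and 901 in GRDim on water. The groups did not overlap, but the highest GRWT library came close to the lowest GRDim one, and the difference was 0.54 ± 0.19 (SE, adjusted p = 0.0493), whose adjusted p ran from 0.00278 to 0.147 over the alternatives. Muscle-poor Retnlb values were 741 and 1072 in GRWT and 1074, 842 and 717 in GRDim, with overlap and a difference of -0.05 ± 0.75 (SE, adjusted p = 0.997).

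B3gnt7, an N-acetylglucosaminyltransferase that extends sugar chains on glycoproteins, showed the largest difference of the 10. It lies on the plus strand of chromosome 1 (86302832 to 86307305, ENSMUSG00000079445) and shares exon sequence with the antisense gene Gm28626, which had 0 counts in all 22 libraries. Muscle-rich values were 23.2, 33.96 and 20.1 normalised CPM in GRWT on water and 235, 223 and 203 in GRDim on water. Every GRDim library was thus several times above every GRWT one, and the fitted ratio was 8.67-fold. The log2 difference was 3.12 ± 0.20 (SE, adjusted p = 5.56e-06). In muscle-poor libraries B3gnt7 was at 33.8 and 80.9 in GRWT and 268, 164 and 116 in GRDim. These groups did not overlap either, but both were spread widely, and edgeR gave 1.66 ± 0.44 (SE, adjusted p = 0.563). DESeq2 called B3gnt7 in the same muscle-poor libraries (adjusted p = 0.0284). Without GRWT water ileum replicate 3, the muscle-poor difference rose to 2.43 (adjusted p = 0.572), and without replicate 2 it was 1.17 (adjusted p = 1), both from fits that leave 1 GRWT water library, which is assumed to vary like the other groups. Over all alternatives the adjusted p ran from 0.0284 to 1.

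Fut2, the fucosyltransferase that caps mucin and surface glycans with alpha-1,2-linked fucose (ENSMUSG00000055978, chromosome 7, 45648591 to 45666394, minus strand), was the least abundant member. It was at 1.39, 2.27 and 3.59 normalised CPM in muscle-rich GRWT water libraries and at 10.7, 12.99 and 11.3 in GRDim ones. The 3 GRDim libraries stood clear of all 3 GRWT ones, with a log2 difference of 2.29 ± 0.50 (SE, adjusted p = 0.00571), which was called. In muscle-poor libraries Fut2 was at 2.01 and 4.16 in GRWT and at 7.39, 4.03 and 2.67 in GRDim, with overlap and a difference of 0.59 ± 0.44 (SE, adjusted p = 0.972). In the fit of all 22 libraries B3gnt7 (2.40 ± 0.32, adjusted p = 0.000136) and Fut2 (1.55 ± 0.38, adjusted p = 0.00992) were the 2 members called, against 5.73% of 15641 genes. With the tissue label as covariate in place of the split, B3gnt7 alone was called.

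**Figure D2:**
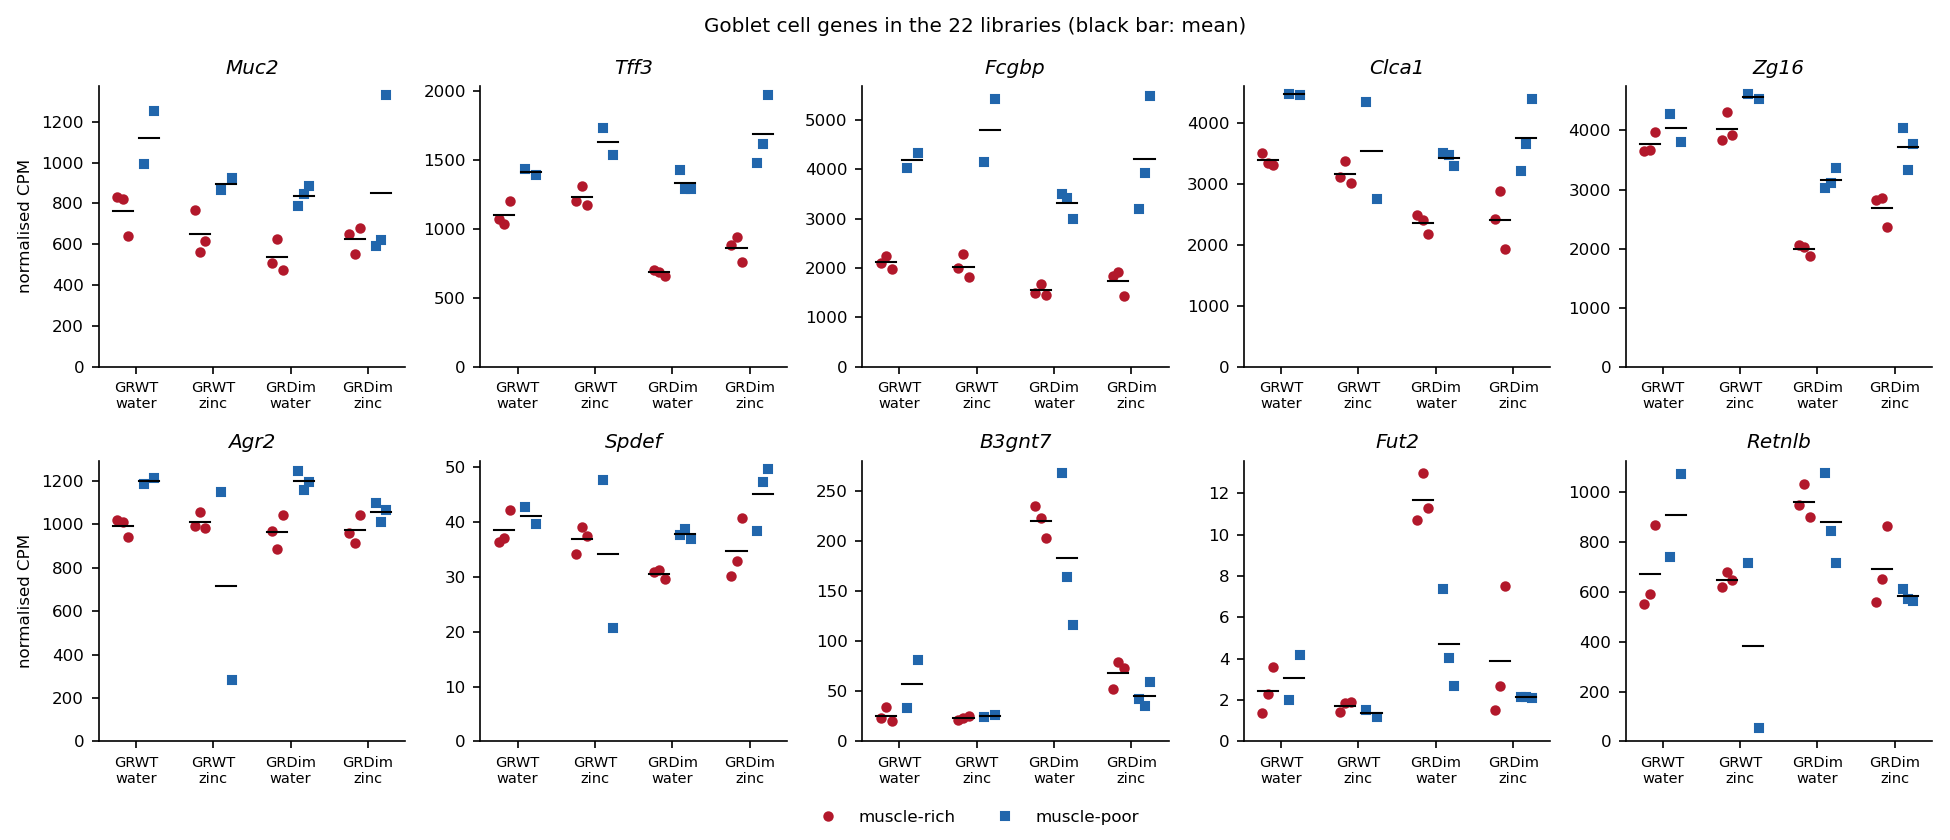
Normalised CPM of each of the 10 genes (linear axes from 0) in the 4 conditions; each point is 1 of 22 libraries, circles muscle-rich and squares muscle-poor, and black bars are means. B3gnt7 and Fut2 are highest in GRDim mice on water, where Zg16 and Tff3 are lowest among the muscle-rich libraries.

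Counts were also set against those of Muc2 in the same library, a ratio that library scaling does not touch. Muc2 was itself lower in GRDim on water (-0.49 in the muscle-rich libraries), which raises the ratio of every other member there. Overlap on this ratio therefore does not show an unchanged level, and a gap may be widened. The share of all genes that separate on this ratio was not determined. B3gnt7 gave 2.800 to 4.13 counts per 100 Muc2 counts in muscle-rich GRWT water libraries and 35.5 to 46.4 in GRDim ones. The muscle-poor ranges were 3.403 to 6.46 and 13.2 to 34.1. Zg16 gave 440.4 to 622 counts per 100 Muc2 counts in muscle-rich GRWT water libraries and 325 to 407 in GRDim ones, lower in every GRDim library. The muscle-poor Zg16 ranges overlapped, at 304 to 432 in GRWT and 368 to 385 in GRDim. The muscle-rich ranges also overlapped between genotypes for Tff3 (126 to 188 and 110.0 to 139), Fcgbp (254 to 312 and 268 to 308), Clca1 (408 to 518 and 385 to 492.9), Agr2 (123 to 148 and 142 to 219) and Spdef (4.38 to 6.62 and 4.998 to 6.22). Retnlb (66.4 to 136 in GRWT and 165 to 189.6 in GRDim) and Fut2 (0.167 to 0.562 and 2.07 to 2.38) were higher in every muscle-rich GRDim library. The 10 members together made up 12800.5 to 12986 CPM in muscle-rich GRWT water libraries and 8844 to 9628 in GRDim ones.

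Zinc in GRWT mice left all 10 genes uncalled. In the muscle-rich libraries 0 members were called by edgeR, 0 had an unadjusted p under 0.05 (11.5% of all genes had) and DESeq2 called 0, against 0.163% of all genes called by edgeR. The groups of 3 overlapped for every member, where 14.8% of all genes had groups without overlap (7.2% higher and 7.56% lower on zinc). B3gnt7 was at 21.01, 22.9 and 24.9 normalised CPM on zinc, within its range on water, with a difference of -0.16 ± 0.22 (SE, adjusted p = 0.818). Zg16 was at 3837, 4306 and 3926 and Muc2 at 769.9, 563 and 615. Tff3 was at 1202, 1311 and 1175, Fcgbp at 1999.9, 2281 and 1815 and Clca1 at 3116, 3384 and 3018. Agr2 was at 991, 1057 and 981, Spdef at 34.1, 39.1 and 37.5, Retnlb at 620.2, 680.2 and 647 and Fut2 at 1.44, 1.86 and 1.89. Each of these sets reached into the range of its water libraries. In the muscle-poor libraries 0 members were called by edgeR and by DESeq2, with 1 at an unadjusted p under 0.05 (17.1% of all genes had), against 0.0431% of the 13908 genes tested called by edgeR. Each mean there rested on 2 libraries, and 1 of the 2 on zinc was the library that stood apart, given second below. Its TMM scaling factor was 0.641, against 0.909 to 0.986 in the other muscle-poor libraries, and a low factor raises every normalised value. Whether the higher Tff3 and Zg16 values below rest on this factor was not tested. B3gnt7, the member with an unadjusted p under 0.05, was at 33.8 and 80.9 normalised CPM on water and 24.1 and 26.8 on zinc, a difference of -1.16 ± 0.47 (SE, adjusted p = 0.272). Fut2 was at 2.01 and 4.16 on water and 1.53 and 1.18 on zinc, a difference of -1.16 ± 0.53 (SE, adjusted p = 0.3). Of the 10 members, 6 were lower on zinc without overlap, 2 were higher without overlap (Tff3 at 1729 and 1534 and Zg16 at 4616 and 4527 on zinc) and 2 overlapped (Fcgbp at 4152 and 5434 and Spdef at 47.6 and 20.6). Of all genes tested in these groups of 2, 39.4% had no overlap, 20.1% lower and 19.3% higher on zinc. The other 4 of the lower ones were Muc2 (867 and 924), Clca1 (4357 and 2749), Agr2 (1148 and 282) and Retnlb (714 and 52.3), and the library that stood apart was far the lower one for the last 3. Over all libraries 0 members were called by edgeR and by DESeq2, with 1 at an unadjusted p under 0.05 (15.8% of all genes had, and 0.166% were called).

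B3gnt7 was lower in GRDim mice on zinc than in GRDim mice on water, a comparison that shares the GRDim water libraries with the genotype comparison above, and in which the groups of 32.2% (muscle-rich) and 26.4% (muscle-poor) of all genes did not overlap. In muscle-rich GRDim libraries B3gnt7 was at 235, 223 and 203 normalised CPM on water and at 52.3, 79.5 and 73.01 on zinc, without overlap. The log2 difference was -1.71 ± 0.19 (SE, adjusted p = 0.00168), a ratio of 0.305, and B3gnt7 was the 1 member called, against 1.33% of genes. In the muscle-poor libraries, where the tissue labels run the opposite way, B3gnt7 was at 268, 164 and 116 on water and 42.7, 35.6 and 59.3 on zinc. The muscle-poor difference of -1.99 ± 0.39 (SE, adjusted p = 0.213) was of similar size and not called by edgeR, with 0.0575% of genes called there, while DESeq2 called it (adjusted p = 0.000128). Of the 10 members 0 were called by edgeR in these muscle-poor libraries, 3 had an unadjusted p under 0.05 (7.89% of all genes had), and DESeq2 called B3gnt7 alone (0.539% of all genes were). The adjusted p of B3gnt7 there ran from 0.000128 to 0.907 over the alternatives.

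Fut2 went with B3gnt7, but less securely. It was at 10.7, 12.99 and 11.3 normalised CPM on water and 1.53, 2.67 and 7.49 on zinc in muscle-rich GRDim libraries. The groups did not overlap, and 1 zinc library, ileum replicate 3, stood closer to the water libraries than to the other zinc ones. The difference was -1.60 ± 0.48 (SE, adjusted p = 0.0774), and without that library it was -2.48 (adjusted p = 0.000425, with a range of 0.000425 to 0.242 over the alternatives). In muscle-poor GRDim libraries Fut2 was at 7.39, 4.03 and 2.67 on water and 2.17, 2.16 and 2.097 on zinc. Over all libraries both B3gnt7 (-1.82 ± 0.29, adjusted p = 0.00289) and Fut2 (-1.39 ± 0.35, adjusted p = 0.0471) were called lower, against 0.556% of genes, and the Fut2 call was lost in 17 of 22 fits that left out 1 library.

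Among the packaged proteins, Zg16 and Tff3 were higher on zinc in muscle-rich GRDim libraries. Zg16 was at 2816, 2855 and 2368 normalised CPM on zinc, above all 3 water libraries, with a difference of 0.41 ± 0.09 (SE, adjusted p = 0.0111). Tff3 was at 882, 938 and 761, also above all 3 water libraries, with 0.31 ± 0.09 (SE, adjusted p = 0.0377). Over the alternatives the adjusted p ran from 3.06e-05 to 0.0674 for Zg16 and from 0.00319 to 0.184 for Tff3, so that both missed the threshold under some. With B3gnt7 lower, these made 3 members with an adjusted p under 0.05, 2 higher (4.46% of all genes were) and 1 lower (3.24% of all genes were). Retnlb was at 559, 653 and 863 on zinc, below its water values, and its difference of -0.50 ± 0.19 (SE, adjusted p = 0.153) did not pass. Muc2 (652, 549.9 and 679), Fcgbp (1846, 1927 and 1436), Clca1 (2436, 2885 and 1939), Agr2 (962, 912 and 1041) and Spdef (30.2, 32.9 and 40.8) overlapped their water values.

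The muscle-poor GRDim libraries showed this rise of Zg16 less clearly. Zg16 was at 4045, 3329 and 3769 normalised CPM on zinc against 3022, 3113 and 3365 on water, with overlap and a difference of 0.23 ± 0.14 (SE, adjusted p = 0.779). Tff3 was at 1478, 1614 and 1969 against 1429, 1286 and 1288, above every water library, with 0.34 ± 0.14 (SE, adjusted p = 0.608). Neither passed. Retnlb was at 613, 572 and 565 on zinc, below every water library as in the muscle-rich ones, with -0.59 ± 0.67 (SE, adjusted p = 0.93). Agr2 was at 1096, 1010.5 and 1067, also below every water library, with -0.18 ± 0.39 (SE, adjusted p = 0.966). These differences did not pass either. Muc2 on zinc was at 592, 622 and 1333, where IEC replicate 6 alone was above the water libraries. The same library was the highest of the 3 for Fcgbp (3194, 3925 and 5489.9), Clca1 (3215, 3658 and 4394) and Spdef (38.4, 47.2 and 49.7), all of which overlapped their water values.

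On zinc the genotypes still differed in B3gnt7. B3gnt7 on zinc was at 21.01, 22.9 and 24.9 normalised CPM in muscle-rich GRWT libraries and 52.3, 79.5 and 73.01 in GRDim ones, a difference of 1.56 ± 0.21 (SE, adjusted p = 0.00111), and was the 1 member called, against 4.4% of genes. Zg16 (-0.60 ± 0.09, adjusted p = 0.000287), Tff3 (-0.53 ± 0.09, adjusted p = 0.000685) and Clca1 (-0.40 ± 0.11, adjusted p = 0.024) were lower with an adjusted p under 0.05, as were 9% of all genes, and B3gnt7 was higher, as were 9.81% of all genes. The adjusted p of Clca1 ran from 0.00414 to 0.0823 over the alternatives. Among muscle-poor libraries edgeR and DESeq2 called 0 members, 0 had an unadjusted p under 0.05 (22.9% of all genes had), and 0.0575% of genes were called by edgeR. Over all libraries B3gnt7 (1.26 ± 0.31, adjusted p = 0.0195) was the 1 member called, against 3.93% of genes, and it was not called with the tissue label as covariate or with no covariate. The test of whether zinc acts differently in the 2 genotypes called 0 members in edgeR in the 3 fits as planned. The unadjusted p was under 0.05 for 2 members in the muscle-rich libraries, 0 in the muscle-poor and 1 over all, against 15.5%, 4.66% and 7.57% of all genes, and the shares of genes called were 0.263%, 0% and 0%. DESeq2 called B3gnt7 in the muscle-rich libraries, with 1.93% of all genes, and 0 members in the other 2 fits. For B3gnt7 the muscle-rich interaction was -1.55 ± 0.29 (SE, adjusted p = 0.0658), and its adjusted p ran from 6.39e-08 to 0.166 over the alternatives. B3gnt7 passed in edgeR under the 5 CPM filter and without GRWT water IEC replicate 5, and in DESeq2. For Fut2 it was -1.13 ± 0.75 (SE, adjusted p = 0.506).

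**Figure D3:**
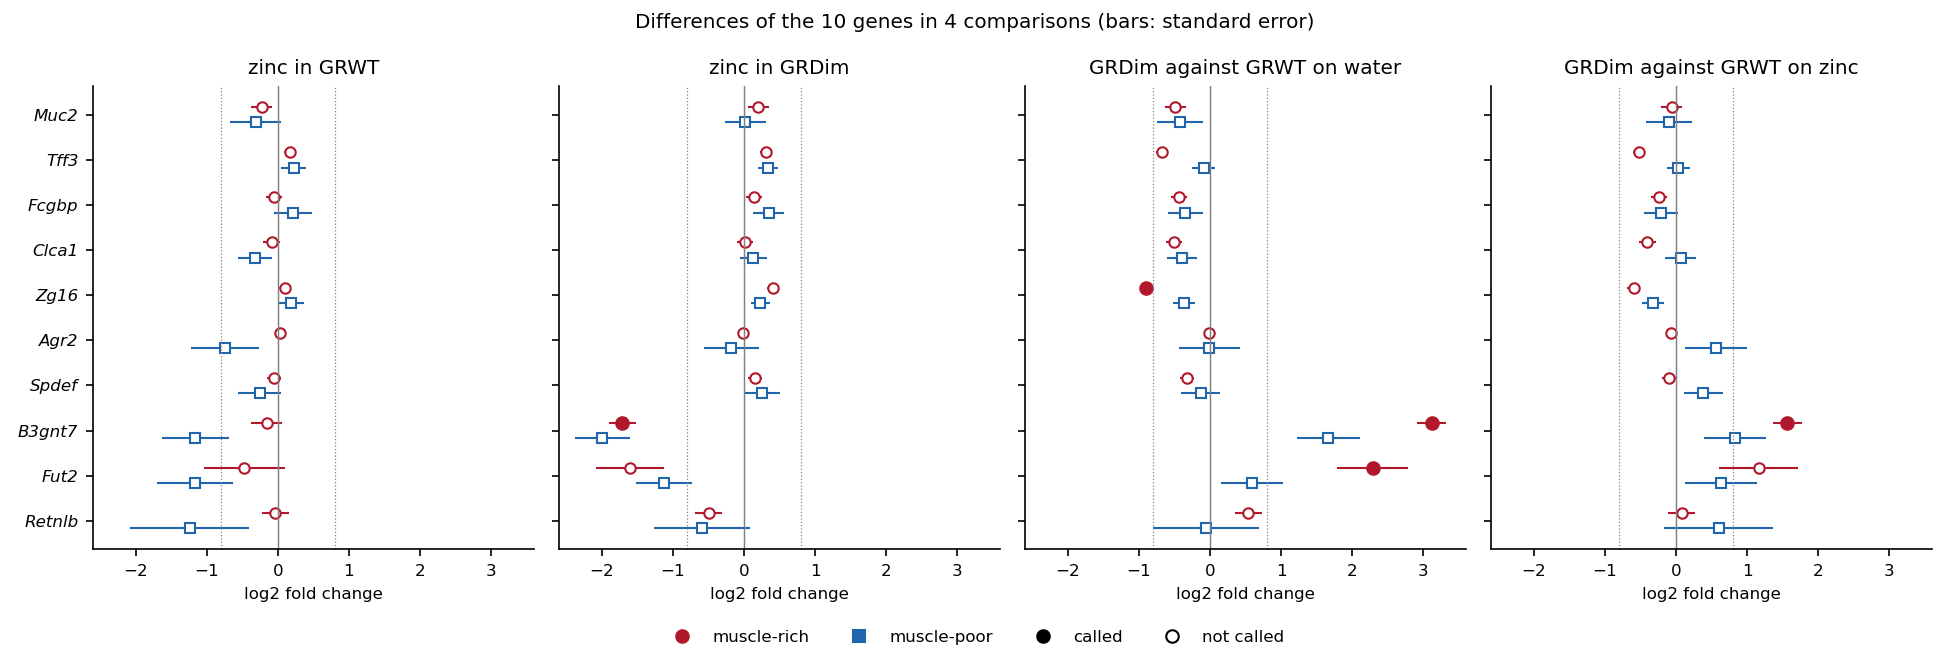
Log2 fold changes with standard errors of the 10 genes in 4 comparisons, from the fits of the muscle-rich (circles) and muscle-poor (squares) libraries; filled symbols are called (adjusted p under 0.05 and beyond the dotted lines at 0.8). B3gnt7 is called in 3 panels and Fut2 and Zg16 in 1, all in muscle-rich libraries.

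In the muscle-poor libraries 0 members were called by edgeR for GRDim against GRWT on water, 2 had an unadjusted p under 0.05 (5.63% of all genes had), DESeq2 called B3gnt7 alone (0.331% of all genes were), and 0.0288% of genes were called by edgeR. The fit rested on 2 libraries per GRWT condition, and leaving out the library that stood apart raised the calls over all genes in this comparison from 4 to 138, still with 0 members. The 4 contrasts of a muscle-rich with a muscle-poor effect called 0 members in edgeR with all 22 libraries and the standard filter, against 0.0192% (zinc in GRWT), 0% (zinc in GRDim), 1.41% (genotype on water) and 3.18% (genotype on zinc) of genes. Unadjusted p-values were under 0.05 for 0, 0, 4 and 1 members, against 17.5%, 3.67%, 12.2% and 22.9% of all genes. Leaving out single libraries gave up to 4, 0, 2 and 5 called members in edgeR, the 4 and the 5 without GRWT zinc ileum replicate 2, and the 5 CPM filter gave Tff3 for the genotype on zinc. DESeq2 called Zg16 and Tff3 for the genotype on water (2.5% of all genes were) and Tff3 for the genotype on zinc (9.6% of all genes were).

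Between the 2 kinds of library 5 members were lower in the muscle-rich one and the others did not pass. Averaged over the 4 conditions, Fcgbp was lower in muscle-rich than in muscle-poor libraries, with a difference of -1.15 ± 0.09 (SE, adjusted p = 1.78e-09) and was the 1 member called, against 23.6% of genes. Its values ran from 1436 to 2281 normalised CPM in the 12 muscle-rich libraries (median 1886) and from 3002 to 5490 in the 10 muscle-poor ones (median 3979). Tff3 (-0.67 ± 0.06, adjusted p = 6.58e-09), Muc2 (-0.52 ± 0.12, adjusted p = 0.00109), Clca1 (-0.43 ± 0.08, adjusted p = 0.000155) and Zg16 (-0.36 ± 0.05, adjusted p = 1.11e-05) were also lower with an adjusted p under 0.05. These made 5 members lower (31.8% of all genes were) and 0 higher (33.8% of all genes were). B3gnt7 (-0.11 ± 0.17, adjusted p = 0.563), Fut2 (0.54 ± 0.27, adjusted p = 0.084), Retnlb (0.18 ± 0.27, adjusted p = 0.588), Spdef (-0.17 ± 0.10, adjusted p = 0.156) and Agr2 (-0.05 ± 0.15, adjusted p = 0.775) did not pass. Without the library that stood apart, the Agr2 difference was -0.23 (adjusted p = 1.91e-05), and over all alternatives its adjusted p ran from 1.36e-06 to 1. In the same contrast 8 of 10 general epithelial markers were lower and 1 higher (median -0.43), 9 of 10 enterocyte markers were lower and 0 higher, and 10 of 10 smooth muscle and 10 of 10 plasma and B cell markers were higher. Their part in the members' differences was not tested.

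Other genes of the pathway were read from lists chosen with these data known. Over all genes tested in the muscle-rich libraries, 18.9% were lower, 19.7% higher and 10.5% called on water between the genotypes. Each count below for that comparison stands against these shares. Of 18 further goblet cell products, 12 were lower and 0 higher with an adjusted p under 0.05 in GRDim against GRWT on water in the muscle-rich libraries, with a median of -0.34. The 2 called were Itln1 (intelectin, 799 to 1092 normalised CPM in GRWT and 245 to 273 in GRDim, -1.82 ± 0.34, adjusted p = 0.00328) and Ang4 (an antimicrobial ribonuclease, 444 to 532 and 148 to 156, -1.63 ± 0.28, adjusted p = 0.00194). Both are also on the list of Paneth cell markers, the antimicrobial cells of the crypt base. On zinc 9 of the 18 were lower and 0 higher in GRDim, with Ang4 (-1.29 ± 0.28, adjusted p = 0.0132) and Itln1 (-1.17 ± 0.34, adjusted p = 0.0437) again called, where 9% of all genes were lower and 4.4% called. Zinc in GRDim gave 4 of 18 higher (4.46% of all genes were) and 0 called, and zinc in GRWT 0 and 0. Of 16 further secretory lineage regulators, 5 were lower and 1 higher on water, and Foxa2, a forkhead factor of secretory cells, was called (6.54 to 7.04 in GRWT and 3.43 to 3.77 in GRDim, -0.90 ± 0.15, adjusted p = 0.000215).

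The 44 further genes tested from the mucin glycosylation list, not all of them enzymes or specific to mucin, moved both ways. On water 7 were higher and 7 lower in muscle-rich GRDim libraries with an adjusted p under 0.05, and 6 were called higher and 1 lower, where 5.02% of all genes were called higher and 5.47% lower, with a median of 0.0060 against -0.0028 over all genes. St6galnac6, a sialyltransferase, was at 18.7 to 23.5 normalised CPM in GRWT and 125 to 144 in GRDim on water, a difference of 2.70 ± 0.24 (SE, adjusted p = 3.41e-05). B3gnt3, which like B3gnt7 adds N-acetylglucosamine, was at 35.2 to 39.1 and 81.4 to 95.6, a difference of 1.29 ± 0.08 (SE, adjusted p = 3.98e-08). Gcnt1, a branching enzyme of O-linked chains, rose by 1.63 ± 0.38 (SE, adjusted p = 0.00742) and B3galt5, a galactosyltransferase, by 1.09 ± 0.18 (SE, adjusted p = 0.000268). The other 2 called higher, named after their values were seen, were St6gal1 (0.95) and Gmds (0.92). Gal3st2, a sulfotransferase, was the enzyme called lower, at 21.9 to 32.8 in GRWT and 5.998 to 9.07 in GRDim (-1.71 ± 0.27, adjusted p = 0.000849). With zinc in muscle-rich GRDim libraries St6galnac6 fell (-1.18 ± 0.22, adjusted p = 0.0145) and Gal3st2 rose (1.08 ± 0.27, adjusted p = 0.043), each in the direction opposite to its genotype difference, but this pair of contrasts shares the GRDim water libraries. On zinc St6galnac6 (2.14 ± 0.25, adjusted p = 0.000606), B3gnt3 (1.18 ± 0.09, adjusted p = 3.81e-07) and B3galt5 (1.09 ± 0.19, adjusted p = 0.00144) were called higher in GRDim, 3 of the 44, where 388 of 15947 genes were. With zinc in GRDim 2 of the 44 were higher and 4 lower with an adjusted p under 0.05 (4.46% and 3.24% of all genes were), and 1 was called each way, where 123 genes were called higher and 89 lower.

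Of 5 membrane and other mucins tested, 3 were higher and 2 lower with an adjusted p under 0.05 in muscle-rich GRDim libraries on water, and 2 were called higher. Muc4, a membrane-bound mucin, was at 2.54 to 3.74 normalised CPM in GRWT and 9.39 to 12.8 in GRDim (1.73 ± 0.19, adjusted p = 9.2e-06), and it was lower on zinc than on water in GRDim (-1.05 ± 0.19, adjusted p = 0.00424). The other was Muc20 (1.36), named after its values were seen. Of 11 genes of IL-13, IL-22 and their receptors and targets, 5 were higher and 3 lower on water with an adjusted p under 0.05. With zinc in GRDim 1 was higher and 4 lower (4.46% and 3.24% of all genes were). Between the genotypes on zinc 2 were higher and 3 lower (9.81% and 9% of all genes were). Reg3g, an antibacterial lectin induced by IL-22, was called higher on water (1.00 ± 0.21, adjusted p = 0.00434) and, with Reg3b, lower with zinc in GRDim (-1.61 ± 0.21 (SE, adjusted p = 0.00299) and -1.16 ± 0.22, adjusted p = 0.0123). For Muc4 and Reg3g the contrasts on water and with zinc share the GRDim water libraries. Within GRDim, zinc cannot be told apart from the tissue label here. The IL-22 decoy receptor Il22ra2 was called lower in GRDim on zinc (-1.16 ± 0.29, adjusted p = 0.0179).

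**Figure D4:**
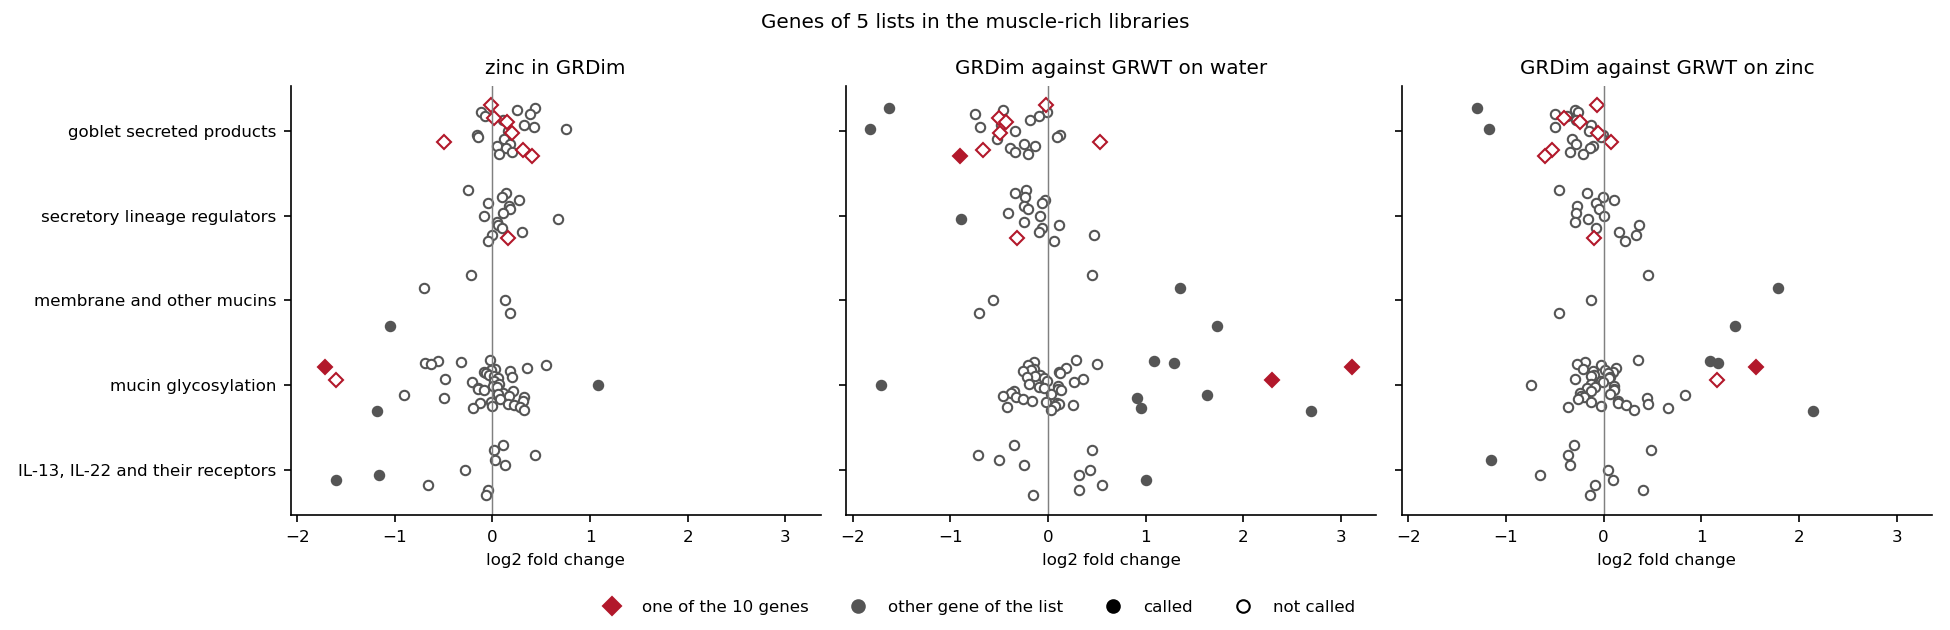
Log2 fold changes in the muscle-rich libraries for the genes of 5 lists in 3 comparisons; diamonds are the 10 genes, circles the other genes of each list, and filled symbols are called. On water the goblet products lie mostly below 0, and 8 glycosylation enzymes, B3gnt7 and Fut2 among them, are called higher in GRDim mice.

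Markers of other cells moved with the genotype in the muscle-rich libraries, and their part in the members' differences was not tested. Listed genes that did not pass the filter on low counts are left out of these counts, and the shares of all genes in the same comparison were 19.7% higher and 18.9% lower. The summed level of 10 smooth muscle markers was 2313 to 2532 normalised CPM in GRWT on water and 1755 to 1986 in GRDim, with 6 of 10 lower and 0 higher at an adjusted p under 0.05. The 10 plasma and B cell markers summed to 4771 to 6504 in GRWT and 13041 to 16396 in GRDim on water, with 5 of 10 higher and 0 lower, against 333 to 502 over all muscle-poor libraries. Of 11 Paneth markers 10 were lower and 0 higher (sum 8409.5 to 10198 and 3306 to 3546), and of 9 enterocyte markers 5 were lower and 0 higher (17702 to 20132 and 11156 to 11554). Of 10 enteroendocrine markers 7 were lower and 0 higher, and of 7 ileal segment genes 5 were lower and 0 higher. Of 8 genes of proliferating crypt cells 6 were higher and 2 lower (1167 to 1412 and 1373 to 1389.8), and the ranges of the sums overlapped. The 10 general epithelial markers summed to 14788 to 15020.4 and 14949.6 to 15954, with 3 higher and 2 lower. Tuft cell markers gave 2 higher and 1 lower of 7, proximal small intestine genes 2 and 2 of 9, and colon genes 1 and 2 of 5. The goblet cell markers themselves were detected in every library, and all 7 of that list are members described above. With zinc in muscle-rich GRDim libraries, where 4.46% of all genes were higher and 3.24% lower, 5 of 9 enterocyte, 4 of 7 ileal segment and 2 of 10 enteroendocrine markers were higher and 0 lower, 4 of 8 proliferating crypt markers were lower and 0 higher, and 0 smooth muscle, Paneth, epithelial or plasma and B cell markers passed in edgeR. Between the genotypes on zinc in muscle-rich libraries, where 9% of all genes were lower and 9.81% higher, 9 of 11 Paneth and 5 of 10 enteroendocrine markers were lower and 0 higher. There 6 of 10 plasma and B cell and 4 of 10 epithelial markers were higher and 0 lower.

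Across the 12 muscle-rich libraries the members most alike were Zg16 and Tff3 (Pearson r = 0.99 of log2 CPM), while B3gnt7 ran against Zg16 (r = -0.97) and with Fut2 (r = 0.87). These are descriptions over libraries that share conditions. Of 14077 genes, those whose pattern was most like B3gnt7 were Mgat4b (r = 0.988), Brip1 (0.987) and Duoxa2 (0.987). For Fut2 they were Actl6a (0.969), Mpp6 (0.957) and Fa2h (0.952).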

How the data were processed

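The counts analysed were deposited by the authors as whole numbers of reads per Ensembl gene and were not normalised. Per the labels and the study's methods, stranded single-end TruSeq libraries were sequenced on a NextSeq 500, reads were aligned to mm10 with HISAT2 2.0.4 and counted with featureCounts without multimapping reads; the strand setting and annotation release are not given in the sources used here. The submitters' notes also name Trimmomatic, SAMtools and DESeq2. Coordinates and exon lengths are those of GENCODE vM21, in which 54809 of 54838 identifiers were found. In the table's header, 1 column name stands over 2 GRDim water ileum libraries, which carry no replicate number here.

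Libraries were split at 100 CPM of Myh11. Separate fits were made with edgeR 4.0.16 (R 4.3.3) for muscle-rich libraries, muscle-poor libraries and all libraries with the split as covariate, with condition as factor, TMM scaling, filterByExpr (minimum count 10) and quasi-likelihood F tests, with Benjamini-Hochberg adjustment across every gene tested. All 10 members passed the filter in each fit. A fit of condition by split (8 groups) gave differences between the 2 kinds of library. Genes were called at an adjusted p under 0.05 and a log2 fold change beyond 0.8, the latter not for interactions and differences of effects. Normalised CPM used TMM factors over all 22 libraries, and a floor of 3 counts corresponded to 0.192 to 0.228 CPM per library. Correlations used log2 of CPM plus 0.5. The fits were tested on simulated data.

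The members and lists were chosen with earlier results of these data known. Named were all members, up to 5 further genes per list and comparison (called, at least 1 CPM on average, largest change), and 3 genes most like each of the 2 members with the largest called change over all libraries. Alternatives were DESeq2 1.42.0, its size factors in edgeR, no filter, a filter at 5 CPM, each library left out, the tissue label or no covariate, a replicate block, and a split by summed muscle markers. That split placed 0 libraries differently.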

Additional observations from a re-analysis of the deposited data

Results flagged for a closer look

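Within conditions, 6 of 40 groups of 5 or 6 libraries (10 members in 4 conditions) held a library far from the others by Dixon's criterion, which chance alone meets in about 1 of 20 groups drawn from 1 population. The groups here mix muscle-rich and muscle-poor libraries, whose levels differ for several members, so that this rate may not hold. GRWT zinc ileum replicate 3, the library that stood apart, had Agr2 at 281.6 normalised CPM against 981 to 1148 in the other 4 and Retnlb at 52.3 against 620.2 to 714. GRDim zinc ileum replicate 3 had Fut2 at 7.49 against 1.53 to 2.67 and Retnlb at 863 against 559 to 653. GRDim zinc IEC replicate 6 had Muc2 at 1333 against 549.9 to 679. GRWT water ileum replicate 3 had B3gnt7 at 80.9 against 20.1 to 34.0.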

How the results depend on the processing

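The 3 members called in muscle-rich libraries for GRDim against GRWT on water stayed at 3 under every alternative run and in all 12 fits without 1 library, and no value that was called changed sign under any alternative. Fut2 was at 3.59 normalised CPM or less in muscle-rich GRWT libraries, so it passed the 5 CPM filter through GRDim libraries, where it was high. Its call under that filter is no separate support. DESeq2 called 2 members for zinc in GRDim in the muscle-rich libraries (B3gnt7 and Fut2), 1 for the muscle-rich interaction, 1 each for zinc in GRDim and for GRDim against GRWT on water in the muscle-poor ones (B3gnt7 each time), 2 for the muscle-rich minus muscle-poor difference on water and 1 on zinc. The 5 CPM filter called 1 in the muscle-rich interaction and 1 in the difference on zinc. Over all libraries, zinc in GRDim called 1 member with no filter, with the tissue label and with no covariate. The tissue label gave 1 for the genotype on water, and the tissue label and no covariate gave 0 for the genotype on zinc. The causes were not tested.

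Leaving out 1 library in turn gave 1 to 2 members for zinc in GRDim and 0 to 1 for the interaction in the muscle-rich libraries. Fut2 was added to both without GRDim zinc ileum replicate 3, and B3gnt7 to the interaction without GRWT water IEC replicate 5. In the muscle-poor ones it gave 0 to 3 for zinc in GRWT, 0 to 3 for the genotype on zinc and 0 to 4 for the interaction. These maxima were reached without GRWT zinc ileum replicate 2, which leaves replicate 3, the library that stood apart, alone in its condition and assumes that it varies like the other groups. The differences between the kinds of library gave 0 to 4 for zinc in GRWT, 0 to 2 for the genotype on water and 0 to 5 for the genotype on zinc. Zinc in GRDim over all libraries gave 1 to 2, and the muscle-rich against muscle-poor contrast 1 to 2. 

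Replicate numbers did not pair the libraries: of 17 pairs with the same number, correlations ran from -0.12 to 0.14 and 1 was over 0.1. With a replicate block over the numbered libraries, the members called were 0 for zinc in GRWT, 2 for zinc in GRDim, 3 for the genotype on water (Zg16 added, -0.81), 1 for the genotype on zinc and 0 for the interaction.

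Counts of all genes called moved more than those of members. In the muscle-rich libraries the genotype comparison on water called 1673 genes and 997 under the 5 CPM filter, that on zinc 702 and 448, and the interaction 42, against 83 under that filter, 269 with no filter and 307 in DESeq2. In the muscle-poor libraries edgeR called 6, 8, 4, 8 and 0 genes for zinc in GRWT, zinc in GRDim, the genotype on water, the genotype on zinc and the interaction, against 435, 75, 46, 738 and 3 in DESeq2 and 16, 24, 11, 15 and 1 with no filter, and the 5 CPM filter gave 5 for the genotype on zinc. Over all libraries the first 4 of these gave 26, 87, 897 and 614 genes, against 13, 12, 224 and 18 with the tissue label and 15, 11, 202 and 53 with no covariate. DESeq2 gave 140 and 169 for the first 2 and 3 against 0 for the interaction, no filter gave 54 for zinc in GRDim and 351 for the genotype on zinc, and the 5 CPM filter gave 570 for the genotype on water. Without the library that stood apart, the genotype on zinc over all libraries gave 394 against 614. The replicate block gave 15, 224 and 127 for zinc in GRWT, zinc in GRDim and the genotype on zinc, and 6 for the interaction. The muscle-rich minus muscle-poor differences of zinc in GRWT, zinc in GRDim, the genotype on water and the genotype on zinc gave 3, 0, 220 and 497 genes, against 474, 2, 391 and 1502 in DESeq2. No filter gave 141 and 183 for the last 2, and DESeq2's size factors in edgeR gave 5 for the first. The contrast of muscle-rich with muscle-poor libraries gave 3697 genes, and 1801 under the 5 CPM filter. With no filter its median over all genes shifted by 0.17 on the log2 scale.

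Without the library that stood apart, the muscle-poor fit called 26, 205, 138, 18 and 0 genes (zinc in GRWT, the genotype on zinc and the interaction then rest on 1 GRWT zinc library), zinc in GRDim over all libraries 273 against 87, and the difference of the genotype effect on water 1233 against 220.

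Depth limits Fut2 most, at 11 to 197 counts per library.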
